A study of Rattus norvegicus with 8 samples.

Results

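The genes Fos, Fosb, Fosl2, Jun, Junb, Jund and Atf3 were followed in liver immune cells of the rat, fresh and after cryopreservation in dimethyl sulfoxide (DMSO). They are 7 of the 32754 genes in the files and were taken by their symbols in all 8 libraries. The set was proposed because levels of these genes had been seen to be higher in DMSO cryopreserved than in fresh cells, so that difference is described here without a test. The cells came from the livers of 4 male rats of the Han Wistar strain. A diet of defined L-amino acids was sufficient in choline (CSAA) for animals NC1 and NC2 and deficient in choline (CDAA) for animals PC1 and PC2. A fresh library without preservation was made from each animal, and another from cells of the same animal that had been stored in DMSO for 3 weeks, thawed in warm medium and washed. Red blood cells had been lysed and the interphase of a density gradient collected in all 8 samples. The livers were pressed through filters, and the ages of the animals are not given in the sources used here. Preservation, thawing, washing and the day of library preparation cannot be told apart.

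AP-1 is a family of transcription factor dimers. Proteins of the Fos group (Fos, Fosb, Fosl2) bind DNA as partners of the Jun group (Jun, Junb, Jund), whereas Jun proteins can also pair with each other. Atf3 belongs to a related group of basic leucine zipper factors and is known as a stress-induced repressor that can pair with Jun proteins. Fos, Fosb, Jun and Junb are textbook immediate early genes, which are transcribed within minutes of a stimulus without new protein synthesis and whose transcripts are short-lived. Jund is known for more even expression in resting cells.

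The libraries were made with the Chromium 3′ v2 kit, in which transcripts of a droplet share a cell barcode and each captured molecule carries a unique molecular identifier (UMI). Barcodes with at least 500 UMIs were taken as cells, which gave 34053 cells (18129 fresh and 15924 DMSO cryopreserved). Libraries held 18338700 to 26471843 UMIs and 3673 to 4771 cells, with medians of 3339 to 4309 UMIs per cell. Pairs of libraries shared 13 to 36 of these barcodes, at most 0.809% of the smaller library. Some markers of cells outside the main lineages differed between fresh and DMSO cells. The summed level of 5 mast cell or basophil genes was 7.44 to 48.7 counts-per-million (CPM) in fresh libraries and 0.38 to 5.06 CPM after DMSO. All 5 were detected in every fresh library and only 1 in DMSO cells of NC1. Of 8 tested hepatocyte markers 5 were lower after DMSO, as were 2 of 4 tested neutrophil markers (edgeR, adjusted p under 0.05). The summed hepatocyte level overlapped, at 287 to 580 CPM in fresh libraries and 263 to 476 CPM after DMSO. Of 3 tested endothelial markers none was called. Of the Clec4a3 myeloid markers 4 of 7 tested and of the monocyte markers 2 of 8 were lower, by at most 0.68 on the log2 scale, while no Kupffer, T or NK cell marker was called. Of the plasmacytoid dendritic cell markers 2 (Spib, 1.3-fold, and Irf8, 1.21-fold) and of the B cell markers 1 (Fcrla, 1.15-fold) were higher after DMSO. Erythroid genes summed to 204 CPM in DMSO cells of NC1 and to 21.3 to 37.0 CPM in the other libraries. The part of these cells in the levels below was not tested.

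Promoters of 4 of the 7 genes (Fosb, Fosl2, Junb and Jund) were matched by symbol in RefSeq, build GRCr8. The 250 bases before the annotated start are shown for the 3 of them that passed the filter on low counts, since these 3 genes changed together but by very different amounts. Capitals mark the cyclic AMP response element (CRE, TGACGTCA) or its core (TGACGTC), the CCAAT box (CCAAT) and the TATA box (TATAAA), each on either strand. The coordinates are chr1:88089185-88089434 on the minus strand for Fosb, chr19:40080876-40081125 on the plus strand for Junb and chr16:18769772-18770021 on the minus strand for Jund.

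Fosb: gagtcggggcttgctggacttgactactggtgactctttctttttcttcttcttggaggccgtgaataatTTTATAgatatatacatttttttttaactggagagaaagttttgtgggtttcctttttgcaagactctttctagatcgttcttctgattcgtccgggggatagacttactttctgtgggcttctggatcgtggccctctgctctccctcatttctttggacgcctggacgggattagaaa

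Junb: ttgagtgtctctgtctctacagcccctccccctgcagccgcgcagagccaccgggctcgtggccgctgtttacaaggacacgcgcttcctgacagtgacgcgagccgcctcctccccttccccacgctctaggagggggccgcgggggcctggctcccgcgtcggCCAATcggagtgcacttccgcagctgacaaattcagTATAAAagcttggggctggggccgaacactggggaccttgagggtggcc

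Jund: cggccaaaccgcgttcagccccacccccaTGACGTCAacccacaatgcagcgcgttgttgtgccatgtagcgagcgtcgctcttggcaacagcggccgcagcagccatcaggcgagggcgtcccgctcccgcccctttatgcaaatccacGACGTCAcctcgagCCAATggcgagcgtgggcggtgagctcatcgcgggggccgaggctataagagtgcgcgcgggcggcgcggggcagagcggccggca

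Jund held the full CRE at bases 221 to 214 before the start. It held a further core at bases 100 to 94, on the other strand, followed by a CCAAT box at bases 86 to 82. The full CRE was present in 1.59% of 33469 promoter windows of this length and the core, which lies within it, in 2.80%. Junb had a CCAAT box at bases 85 to 81 and a TATA box at bases 49 to 44, which were present in 34.0% and 12.9% of windows. In Fosb the marked letters were those of the TATA box on the other strand, at bases 180 to 175. The AP-1 site (TGANTCA, 6.34% of windows) and the CArG box (1.5% of windows), which binds serum response factor, were searched as well and were not among the letters of these 3 windows. These matches describe letters and not binding.

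Fosb, a Fos protein that pairs with Jun proteins, had the largest difference between fresh and DMSO cryopreserved cells among the 11505 genes tested. Levels over all cells were 21.6, 11, 2.01 and 1.84 CPM in fresh cells of NC1, NC2, PC1 and PC2, with UMIs scaled by the trimmed mean of M-values (TMM). After DMSO they were 289, 1046, 372 and 334 CPM. The groups did not overlap, fresh cells of NC1 were the highest of the fresh libraries and DMSO cells of NC2 the highest of the preserved ones. The fitted level was 66.0-fold higher after DMSO, a log2 difference of 6.04 with a standard error (SE) of 0.55. Within animals the log2 difference was 3.74 for NC1 and 6.57 to 7.53 for the other 3, so NC1 stood well below them. Without NC1 the fitted log2 difference was 7.02, and without NC2 it was 5.84.

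Fos, the founding member of its group, was next in size. It was at 92.9, 32.1, 20.1 and 22.6 CPM in the fresh libraries of NC1, NC2, PC1 and PC2 and at 777, 1238, 756 and 925 CPM after DMSO. The groups did not overlap, and fresh cells of NC1 were again the highest of the fresh libraries. The fitted level was 26.5-fold higher (log2 4.73, SE 0.36), and 69319 Fos UMIs were counted in DMSO cells against 3754 in fresh cells. The difference was 3.06 on the log2 scale in NC1 and 5.23 to 5.35 in the other animals, and the fitted value without NC1 was 5.28.

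Jun, the partner of both, had even fresh levels of 37.7, 29.2, 30.7 and 24.1 CPM in NC1, NC2, PC1 and PC2. After DMSO it was at 402, 688, 269 and 413 CPM. Groups did not overlap, and every animal showed a log2 difference between 3.13 (PC1) and 4.56 (NC2). The fitted level was 13.9-fold higher (log2 3.80, SE 0.20), the third largest difference of all genes tested. Fos, Fosb and Jun thus held the first 3 places.

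**Figure D1:**
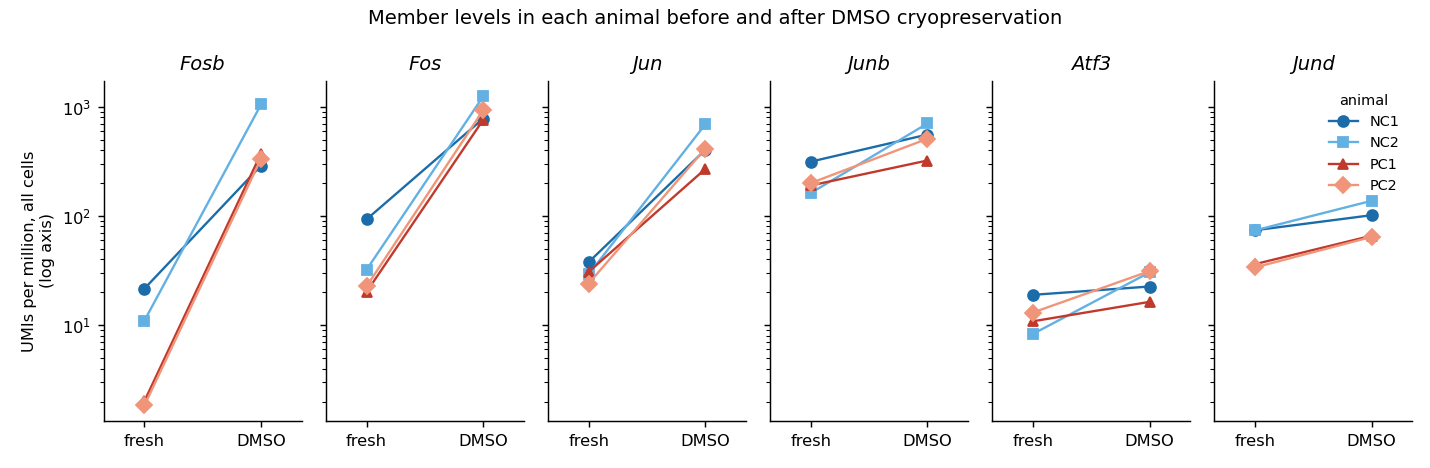
TMM-scaled levels of the 6 tested genes (CPM, log axis) summed over all cells of each library, with a line from the fresh to the DMSO library of each animal. Levels of Fosb, Fos, Jun and Junb did not overlap between fresh and DMSO libraries, and those of Jund and Atf3 did.

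Junb had the most UMIs of these genes in fresh cells, in a 3′ count of 1 per molecule that does not grow with transcript length, and differed less. Its level was 314, 162, 190 and 200 CPM in fresh libraries of NC1, NC2, PC1 and PC2 and 555, 701, 321 and 508 CPM after DMSO. The preserved libraries lay above the fresh ones, but DMSO cells of PC1 exceeded fresh cells of NC1 by little. The fitted difference was 2.39-fold (log2 1.26, SE 0.18), which ranked 34 among the genes tested.

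Jund, a further member of the Jun group, was at 73.9, 73.7, 36.2 and 33.7 CPM in fresh libraries and at 101, 137, 65.9 and 64.3 CPM in DMSO libraries of NC1, NC2, PC1 and PC2. The ranges overlapped, because both CSAA animals were higher than both CDAA animals before as well as after preservation. Within each animal the DMSO library was higher, by 0.46 to 0.93 on the log2 scale (fitted 1.72-fold, log2 0.79, SE 0.080).

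Atf3 was at 18.9, 8.31, 10.8 and 13 CPM in fresh cells of NC1, NC2, PC1 and PC2, and their DMSO cells had 22.6, 30.4, 16.3 and 31.2 CPM. Its ranges overlapped through fresh NC1 and DMSO PC1, and the log2 difference was 0.25 in NC1 and 1.87 in NC2. The fitted difference was 1.97-fold (log2 0.98, SE 0.21). Fosl2 had 2 UMIs in fresh and 4 in DMSO cells, all 4 of them in PC1, and did not pass the filter on low counts. These were too few UMIs for levels of Fosl2 to be compared, and why so few were counted was not tested.

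A fitted level at least 2-fold higher after DMSO was seen in 4 of the 6 tested members (Fosb, Fos, Jun and Junb), against 0.487% of all genes tested. This share is printed as background only, since the members were chosen by this contrast. Leaving out each animal in turn gave 3 to 5 members past this line. Fresh NC1 was the highest fresh library for all 6 tested members, while DMSO NC2 was the highest preserved library for 5 of them and DMSO PC2 for Atf3.

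The make-up of the family changed with its amount. The 7 genes took 0.0296 to 0.0581% of the UMIs of fresh cells and 0.174 to 0.362% of those of DMSO cells. Junb gave 51.2 to 67.7% of these UMIs in fresh libraries and 17.8 to 25.9% after DMSO. Fos went from 6.95 to 16.6% up to 32.2 to 42.0%, which made it the first in each DMSO library. Fosb went from 0.62 to 3.86% to 13.4 to 27.2%, whereas Jund went from 11.4 to 23.3% down to 2.82 to 4.73%. In sums over all cells, a different mix of cells and a different level per cell cannot be told apart, and the levels were therefore also taken within lineage gates.

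Cells were gated by at least 1 UMI of exactly 1 of 7 lineage genes. These were Clec4f (Kupffer cells), Clec4a3 (myeloid cells), Vcan (monocytes), Siglech (plasmacytoid dendritic cells), Cd79a (B cells), Cd3e (T cells) and Ncr1 (NK cells). Gates held 12884 cells, from 395 (Clec4f) to 3022 (Ncr1), and 13802 cells with UMIs of several gate genes were left out. The fewest cells in 1 library and gate were 23, for Clec4f in DMSO cells of NC1 and PC2. The summed level of a separate list of markers of each lineage was 1.57 to 16.7 times that of all cells in its gate, except for Clec4f in fresh cells of PC2 with 0.88 times. A gate rests on as little as a single UMI and is therefore named by its gene and not as a cell type.

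Fresh levels in these gates were not the stated reason for choosing the genes. They were compared with edgeR, each gate against the mean of the other 6 within the animals. Of 46732 gate and gene combinations 18.4% passed an adjusted p of 0.05. The 6 tested members gave 13 calls in the 7 gates, with none in that of Cd79a. Without the animal as a block none of the 13 passed.

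Junb, a Jun protein made in many immune cells, was highest in the myeloid gates. It was at 416, 276, 273 and 270 CPM in Clec4a3-gated fresh cells of NC1, NC2, PC1 and PC2, above the mean of the other gates in 4 of 4 animals (log2 0.51, SE 0.085, adjusted p = 1.44e-05). In Vcan-gated cells it was at 520, 158, 277 and 274 CPM, also above the mean of the other gates in 4 of 4 animals (log2 0.57, SE 0.11, adjusted p = 0.000167). In NC2 this was by little, within the 113 to 276 CPM of the other gates. In the Clec4a3 gate 27.5% and in the Vcan gate 11.4% of all genes tested were called. Siglech-gated cells had 144 to 281 CPM, lower in 4 of 4 animals by 0.45 on the log2 scale (SE 0.087, adjusted p = 0.000119), and 23.7% of genes were called there. Junb was also called lower in Ncr1-gated (log2 -0.39, SE 0.087, adjusted p = 0.000836) and Cd3e-gated cells (log2 -0.26, SE 0.092, adjusted p = 0.0435), in 4 of 4 animals each. These last 2 directions depended on the gate. With a gate of at least 2 UMIs they turned to 0.19 for Ncr1 and 0.060 for Cd3e. With a leading gate gene, chosen after seeing the data, they were 0.24 (adjusted p = 0.0315) and 0.062. The Cd3e call was also lost without NC1, PC1 or PC2 (log2 -0.22 to -0.28).

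Fos was highest in Vcan-gated fresh cells, mainly through 1 library. NC1 had 452 CPM there, NC2 52.6 CPM, PC1 8.55 CPM and PC2 54.0 CPM, against gate means of 26.4 to 39.9 CPM elsewhere. Vcan-gated cells lay above the mean of the other gates in 3 of 4 animals and below it in PC1 (log2 1.81, SE 0.27, adjusted p = 2.15e-06). Without NC1 the log2 difference was 0.94 with an adjusted p of 0.0468. The 60 Fos UMIs of NC1 lay in 14 of 34 Vcan-gated cells, and the 3 highest of these cells held 53.3% of them. Ncr1-gated cells had 14.8 to 57.3 CPM, lower than the mean of the other gates in 4 of 4 animals (log2 -0.66, SE 0.21, adjusted p = 0.0216), in a gate where 31.4% of genes were called. This call was lost without NC1, NC2 or PC2 (log2 -0.58 to -0.66). It was also lost with a gate of at least 2 UMIs (log2 -0.22, adjusted p = 0.599) and with a leading gate gene (log2 -0.090, adjusted p = 0.783).

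Jun was at 65.8, 26.4, 50.7 and 42.2 CPM in Clec4f-gated fresh cells of NC1, NC2, PC1 and PC2. In NC2 the other gates ranged from 10.3 to 37.6 CPM. The Clec4f gate lay above the mean of the other gates in 4 of 4 animals (log2 0.85, SE 0.29, adjusted p = 0.0341). This value rests on 38 UMIs and lost its call without NC1, PC1 or PC2 (log2 0.73 to 0.82), and 4.25% of genes were called in this gate. In Siglech-gated cells Jun was at 16.1 to 26.9 CPM, lower in 4 of 4 animals (log2 -0.61, SE 0.16, adjusted p = 0.00583). That call was lost without NC1 or PC1 (log2 -0.53 both times).

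Jund had its highest mean in Ncr1-gated cells, with 141, 125, 61.3 and 39.2 CPM in NC1, NC2, PC1 and PC2. These cells lay above the mean of the other gates in 3 of 4 animals (log2 0.59, SE 0.14, adjusted p = 0.00154). In this gate Jund was also called with at least 2 UMIs (log2 0.78) and with a leading gate gene (log2 0.63). Jun was then called higher there as well (log2 1.13, adjusted p = 0.000102, and log2 1.12, adjusted p = 9.52e-06). Clec4a3-gated cells had 28.3 to 61.3 CPM, lower in 4 of 4 animals (log2 -0.54, SE 0.19, adjusted p = 0.0384), so Junb and Jund were called in opposite directions in this gate. The call of Jund in this gate was lost without NC1, NC2 or PC1 (log2 -0.44 to -0.55).

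Atf3 was higher in Clec4a3-gated cells (9.97 to 27.8 CPM, 3 of 4 animals, log2 0.92, SE 0.27, adjusted p = 0.0122). It was lower in Ncr1-gated cells (3.04 to 8.01 CPM, 3 of 4 animals, log2 -1.06, SE 0.31, adjusted p = 0.0110). The first call was lost without PC2 (log2 0.44) and the second without NC1 (log2 -0.96) or NC2 (log2 -0.75). The second was also lost with a leading gate gene (log2 -0.43, adjusted p = 0.443). Vcan-gated cells had the highest mean, 26.4 ± 13.5 CPM (SD, n = 4), from 23 UMIs in all, and were not called (log2 1.05, adjusted p = 0.0948). Fosb was called in no gate in this fit. Its fresh UMIs ranged from 2 in Clec4f-gated to 84 in Siglech-gated cells, and its log2 difference in Vcan-gated cells of 1.68 had an adjusted p of 0.116 (unadjusted p = 0.0281). In Cd79a-gated cells, where 13.5% of genes passed, none of the 6 members did (in this edgeR fit, with unadjusted p of 0.0230 for Fos and 0.0188 for Jun and above 0.05 for the others). In Cd3e-gated cells 16.9% of genes passed.

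Other settings also ended some of these calls. In DESeq2, Fos in Ncr1-gated (adjusted p = 0.0924) and Atf3 in Clec4a3-gated cells (adjusted p = 0.0600) did not pass. Jun in Clec4f-gated cells did not pass without a filter (adjusted p = 0.0677) or with adjustment within the gate (adjusted p = 0.159), nor did Jund in Clec4a3-gated cells without cells of at least 20% mitochondrial UMIs (adjusted p = 0.0526). Some settings added calls instead. Atf3 in Vcan-gated cells passed in DESeq2 (log2 1.24, adjusted p = 0.0185) and without PC2 (log2 1.58). Fosb there passed in edgeR without a filter (log2 1.59, adjusted p = 0.0275) and without PC1 (log2 2.77). Fos in Cd79a-gated cells passed as lower in edgeR without a filter (log2 -0.67, adjusted p = 0.00954) and without PC1 (log2 -0.86).

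Ordered by their means, gates that stood next to each other overlapped in their 4 libraries for every tested member, in fresh as in DMSO cells. In fresh cells the order ran from Vcan (142 ± 208 CPM) to Cd79a (26.4 ± 21.7 CPM) for Fos and from Vcan (18.2 ± 18.4 CPM) to Clec4f (2.31 ± 4.61 CPM) for Fosb. It ran from Clec4f (46.3 ± 16.5 CPM) to Cd79a (19.6 ± 13.9 CPM) for Jun and from Clec4a3 (309 ± 71.7 CPM) to Siglech (184 ± 65.2 CPM) for Junb. After DMSO it ran from Ncr1 (1173 ± 263 CPM) to Cd79a (821 ± 152 CPM) for Fos and from Ncr1 (756 ± 414 CPM) to Clec4a3 (385 ± 269 CPM) for Fosb. For Jun it ran from Vcan (841 ± 272 CPM) to Cd79a (334 ± 159 CPM), for Junb from Vcan (732 ± 190 CPM) to Siglech (488 ± 216 CPM) and for Atf3 from Vcan (76.5 ± 54.5 CPM) to Ncr1 (12.2 ± 7.34 CPM). All of these are means ± SD of 4 libraries. The ratio of the highest to the lowest gate mean went from 5.36 in fresh to 1.43 in DMSO cells for Fos and from 7.91 to 1.96 for Fosb. The fresh ratio of Fos rests on NC1 in the Vcan gate, without which it was 2.42 against 1.27 after DMSO. The lowest fresh gate mean of Fosb rests on 2 UMIs. That ratio was 2.36 and 2.52 for Jun, 1.68 and 1.5 for Junb and 4.38 and 6.25 for Atf3.

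**Figure D2:**
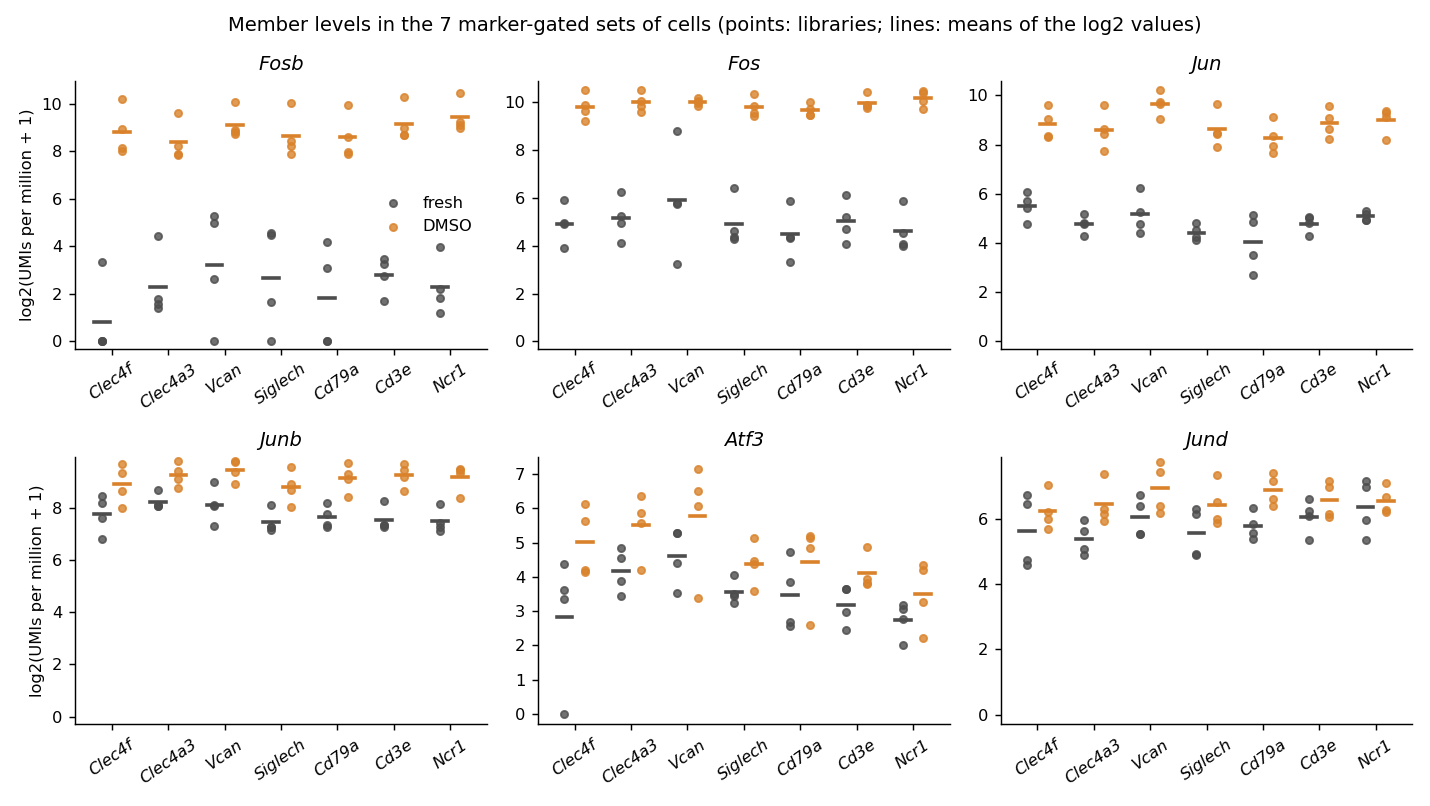
Level of each tested member in the 7 gates as log2 of CPM plus 1, for fresh and DMSO libraries (points) with the mean of the log2 values (lines). Fos, Fosb and Jun were higher after DMSO in every gate without overlap, whereas Jund and Atf3 overlapped in most gates.

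Within every gate Fos, Fosb and Jun were higher in DMSO than in fresh cells in 4 of 4 animals and did not overlap. Fos in Cd79a-gated cells, for example, was at 58.2, 18.8, 19.6 and 9.13 CPM in fresh cells of NC1, NC2, PC1 and PC2 and at 710, 1027, 702 and 844 CPM after DMSO. Junb was higher in 4 of 4 animals in 6 of 7 gates and without overlap in 4. Atf3 was higher in 4 of 4 animals in 5 gates and Jund in 4, each with 1 gate free of overlap. The share of all genes that behaved in this way was not counted, so these counts do not set the members apart from other genes. They are a description, since the members were chosen by the contrast of fresh and DMSO cells. For Jund, Ncr1-gated cells of NC1 and NC2 were lower after DMSO, at 134 and 99.7 CPM against 141 and 125 CPM in fresh cells.

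The fitted log2 difference of Fos ranged from 3.55 in Vcan-gated to 5.59 in Ncr1-gated cells, and that of Jun from 3.40 in Clec4f-gated to 4.57 in Vcan-gated cells. That of Fosb ranged from 5.13 in Siglech-gated to 7.37 in Ncr1-gated cells, not counting the Clec4f gate with 2 fresh and 503 DMSO UMIs. For Junb it was 1.04 (Clec4a3) to 1.73 (Ncr1) and for Jund 0.25 (Ncr1) to 1.13 (Cd79a).

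Whether the difference itself depended on the gate was tested as an interaction. The genes were chosen with earlier results of these data known, so whether that choice was free of these values is not known. Of 48419 gate and gene combinations 0.0165% passed. Among the members only Fos in Vcan-gated cells was called, with a difference smaller by 1.51 on the log2 scale than the mean of the other gates (log2 -1.51, SE 0.28, adjusted p = 0.0192). It was smaller in 3 of 4 animals, by 2.69 in NC1, 1.31 in NC2 and 1.06 in PC2 on the scale of log2 CPM plus 1, and larger by 1.33 in PC1. Without NC1 the value was -0.63 and the call was lost (adjusted p = 1). The fresh level of Fos in this gate, with NC1 at 452 CPM, is the same measurement as in the comparison of fresh cells above. In Ncr1-gated cells the difference was larger for Fos in 4 of 4 animals (log2 0.99, SE 0.22, adjusted p = 0.115) and for Fosb in 4 of 4 animals (log2 1.15, SE 0.46, adjusted p = 0.938), and neither was called. Fos did pass without exclusion of cells with several gate genes (log2 0.73, adjusted p = 0.00118), without a filter (log2 0.96, adjusted p = 3.98e-07) and without PC1 (log2 1.07, adjusted p = 0.0229). Fosb passed without that exclusion (log2 0.96, adjusted p = 1.79e-06). Without the exclusion a cell enters the sum of every gate gene it holds. Those sums share cells, so their adjusted p values cannot be read as coming from separate samples. Jund in Ncr1-gated cells had a smaller difference that passed without the exclusion, without a filter and without PC2 (log2 -0.40 to -0.93). Junb passed in Ncr1-gated cells without the exclusion (log2 0.31). In Clec4a3-gated cells Junb passed without the exclusion (log2 -0.24) and without a filter (log2 -0.40). Fosb in Siglech-gated cells passed without a filter (log2 -1.19).

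**Figure D3:**
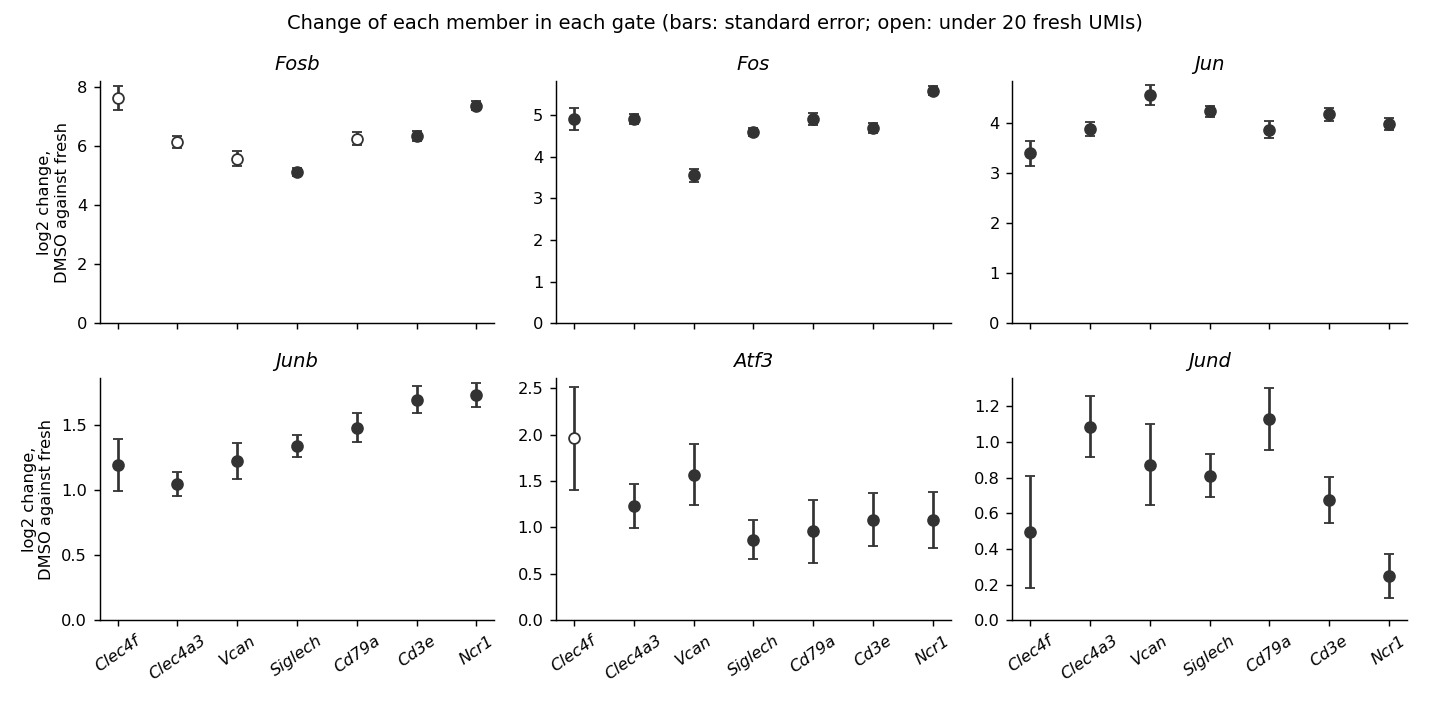
Fitted log2 difference between DMSO and fresh cells of each tested member in each gate, with its standard error. Open symbols mark gates with under 20 fresh UMIs of that member. Fos in Vcan-gated cells lies at 3.55 and in Ncr1-gated cells at 5.59.

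The diet was compared in fresh cells, 2 animals against 2, and was not the stated reason for choosing the genes. Fosb was lower in CDAA (2.01 and 1.84 CPM) than in CSAA animals (21.6 and 11 CPM), by 3.06 on the log2 scale (8.33-fold, SE 0.38, adjusted p = 0.0379). Jund was lower as well, at 36.2 and 33.7 CPM in CDAA and 73.9 and 73.7 CPM in CSAA animals (2.08-fold, SE 0.11 on the log2 scale, adjusted p = 0.0226). Groups did not overlap for either gene, and 0.314% of all genes tested were lower in CDAA animals. Both calls were lost without PC1 (log2 -3.12 for Fosb, -1.10 for Jund) and without PC2 (log2 -2.99 and -1.0). Without NC2 there were 4 calls, with Fos (log2 -2.11) and Junb (log2 -0.68) added. Each of these fits leaves 1 animal in a diet, which is assumed to vary like the animals of the other diet, and without NC2 the CSAA animal left is NC1, the highest fresh library for Fos. Fos was 2.89-fold lower, but its CSAA animals were at 92.9 and 32.1 CPM and it did not pass (adjusted p = 0.167). Jun, Junb and Atf3 differed by 0.17 to 0.27 on the log2 scale with adjusted p of 0.482 to 0.838. The mast cell or basophil markers were also lower in fresh CDAA (7.44 and 15.7 CPM) than CSAA cells (48.7 and 25.8 CPM), as were the summed markers of T cells (522 and 449 against 920 and 1037 CPM), plasmacytoid dendritic cells (1694 and 1689 against 2828 and 2032 CPM) and B cells (739 and 582 against 866 and 791 CPM). Kupffer cell markers were higher in CDAA (1405 and 1360 CPM) than CSAA cells (524 and 729 CPM), and those of Clec4a3 myeloid cells and monocytes were higher without overlap too. Within the gates, Jund was lower in CDAA cells without overlap in 6 of 7 gates (not in that of Cd3e) and Fosb in 5 of 7 (not in those of Clec4f and Clec4a3). Fos was lower in this way in 4 gates, Jun and Atf3 in 3 each and Junb in 1. The gates share the same animals, so they do not repeat the comparison. Without a share of all genes, which was not counted, these counts do not set the members apart from other genes. Fosb had only 12 fresh UMIs in Vcan-gated and 15 in Cd79a-gated cells. The part of the cell types named above in the diet values over all cells was not tested.

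Whether the difference between fresh and DMSO cells depended on the diet was tested as an interaction, and 0.0329% of genes passed. None of the 6 members passed in edgeR or in DESeq2. Fosb had the largest value, a difference larger by 2.43 (log2, SE 0.84, adjusted p = 0.708) in CDAA animals. It was also the only member with an unadjusted p under 0.05 in edgeR. Without NC2 the values of Fos (2.21) and Fosb (3.75) passed, and without NC1 that of Junb (-1.07) did, in each case with 1 CSAA animal whose spread is taken from the other animals.

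In single cells Fos was found in few fresh cells and in most DMSO cells. To compare cells of different depth, each cell was thinned at random to 1000 UMIs, which left out 238 to 427 shallower cells per library. A Fos UMI was found in 7.43, 2.26, 2.15 and 2.59% of fresh cells of NC1, NC2, PC1 and PC2 and in 50.9, 66.7, 50.8 and 58.0% of DMSO cells. Without thinning these shares were 8.0 to 23.3% and 85.1 to 92.0%. For Fosb the thinned share was 0.79 ± 0.82% in fresh and 36.1 ± 15.5% in DMSO cells (SD, n = 4), with 59.1% in NC2 and 25.3 to 30.6% in the other preserved libraries. Jun was found in 2.68 ± 0.56% and 32.2 ± 8.95% and Junb in 19.1 ± 4.28% and 38.9 ± 8.22% of cells. Jund (6.77 ± 2.77% and 9.77 ± 2.76%) and Atf3 (0.95 ± 0.34% and 1.97 ± 0.63%) stayed in few cells. Among the gates the mean thinned share with Fos in DMSO cells lay between 53.2% (Cd79a) and 66.6% (Ncr1). No cell type of the preparation is known to lack these genes, so no background share was taken from one.

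Counted over the 7 genes, cells without any member made up 60.6, 74.0, 73.9 and 73.7% of fresh and 17.1, 6.36, 21.5 and 14.6% of DMSO cells of NC1, NC2, PC1 and PC2. Cells with 3 members were 0.07 to 0.85% of fresh cells and 11.6 to 28.6% of DMSO cells. Preserved cells of NC2, the library with the most Fosb, had the fewest cells without a member and the most with 3.

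**Figure D4:**
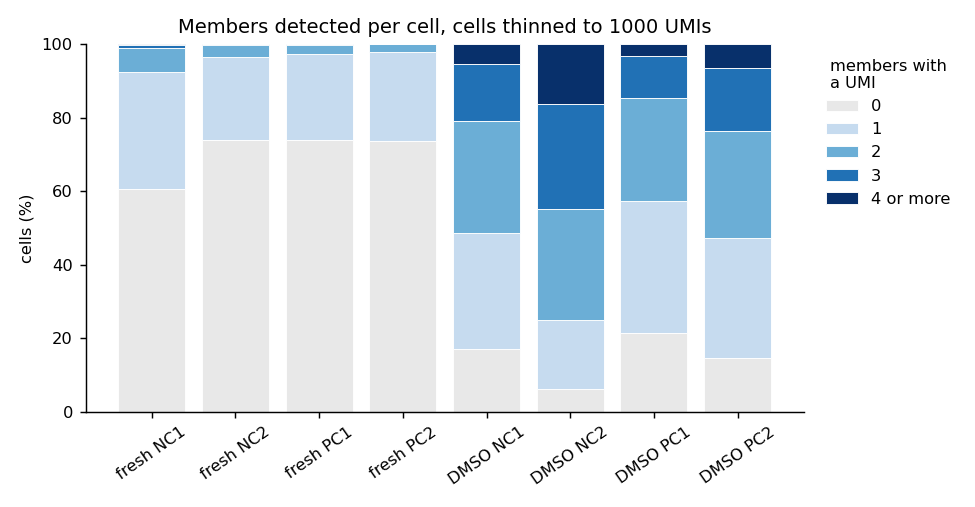
Percent of cells with UMIs of 0, 1, 2, 3 or at least 4 of the 7 genes, in cells thinned to 1000 UMIs, stacked for each library. Cells without a member fell from between 60.6 and 74.0% in fresh libraries to between 6.36 and 21.5% in DMSO libraries.

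Co-detection of a pair was measured as the share of cells with both genes divided by the product of the single shares, which is 1 when they occur independently. In DMSO cells it was 1.07 to 1.17 for Fos and Jun (median 1.13 over 4 libraries) and 1.11 to 1.26 for Fosb and Jun (median 1.21). It was 1.04 to 1.11 for Fos and Fosb. Of 15 pairs 13 were above 1 in all 4 preserved libraries, and the exceptions were Fosb with Atf3 (0.78 to 1.06) and Junb with Atf3 (0.93 to 1.44). Among cells of 2000 to under 5000 UMIs 9 of the 15 pairs were above 1 in all 4 preserved libraries, and the values were 1.08 to 1.13 for Fos and Jun and 1.10 to 1.22 for Fosb and Jun. These excesses are small, and cells of a library share its depth and its free RNA. In fresh cells Fos and Jun were found together in only 1 to 18 cells per library, too few for a ratio to be read, whereas Fos and Junb shared 26 to 125 cells with values of 1.40 to 1.93. In fresh cells of 2000 to under 5000 UMIs these values were 1.17 to 1.69. Within gates they rested on few cells, with 1.28 to 2.38 in Ncr1-gated (1 to 8 cells) and 0 to 1.32 in Cd3e-gated fresh cells (0 to 9 cells).

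Levels also depended on the size of the barcode. In DMSO libraries Fos took 1804 to 2073 CPM in cells of 500 to under 1000 UMIs and 597 to 983 CPM in cells of at least 5000 UMIs, here without TMM scaling. Jun and Fosb were likewise higher in the smaller cells, with 689 to 996 and 668 to 1707 CPM against 246 to 534 and 227 to 865 CPM. Atf3 went the other way in each DMSO library, with 5.14 to 20.2 CPM in the smaller cells, from few UMIs, against 18.9 to 37.8 CPM. Cells of 500 to under 1000 UMIs had median mitochondrial shares of 13.7 to 24.2% and those of at least 5000 UMIs of 4.26 to 7.03%, a difference seen in fresh and DMSO libraries. In fresh libraries Jund also was higher in the smaller cells, with 63.6 to 273 CPM against 29.1 to 57.8 CPM. Barcodes of 1 to 100 UMIs, which hold mostly free RNA, had 454 to 776 CPM of Fos and 193 to 699 CPM of Fosb in DMSO libraries and 28.1 to 73.1 and 6.92 to 26.9 CPM in fresh libraries. Free RNA thus differed between the groups in the same direction as the cells, and its part in the cell values was not tested. Counted in cells of at least 1000 UMIs, Fos was higher after DMSO by 4.71 on the log2 scale, against 4.73 in all cells.

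**Figure D5:**
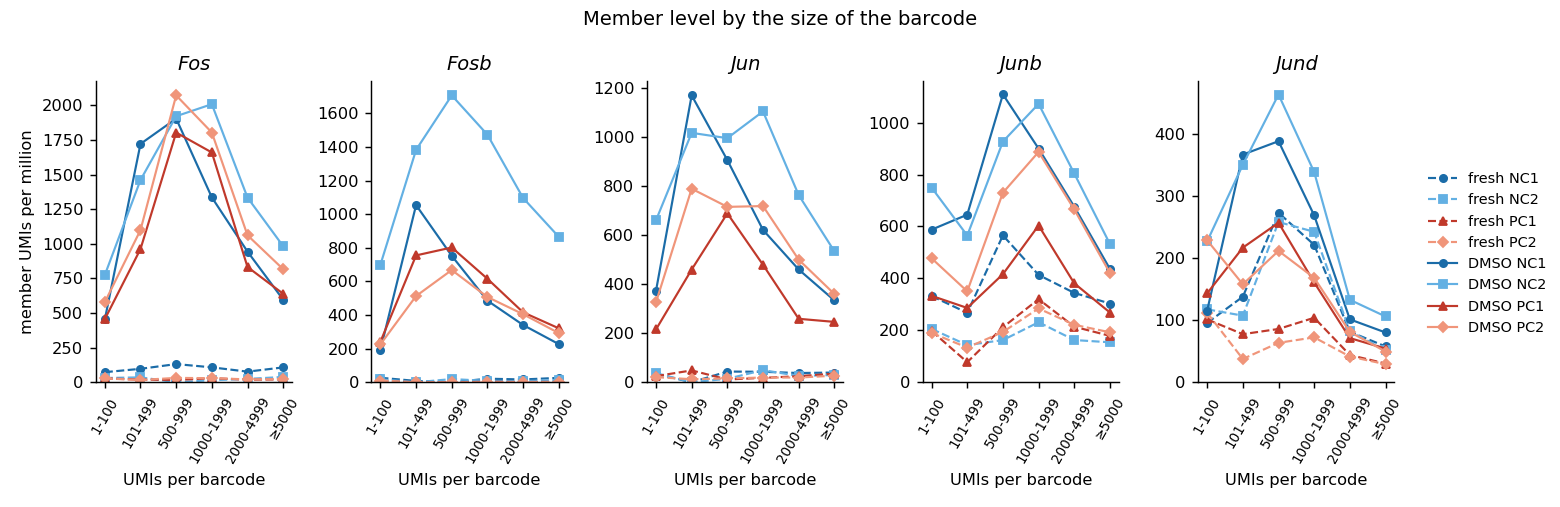
CPM without TMM scaling of Fos, Fosb, Jun, Junb and Jund by barcode size, from 1 to 100 up to at least 5000 UMIs, for fresh (dashed) and DMSO (solid) libraries. In DMSO libraries Fos was at 1804 to 2073 CPM in barcodes of 500 to under 1000 UMIs and at 454 to 776 CPM in those of 1 to 100 UMIs.

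Genes around AP-1 were compared between fresh and DMSO cells with edgeR, where 4.75% of all genes tested were higher and 4.33% lower after DMSO. The lists here and below were chosen with earlier results of these data known, so their counts are a description. Of 12 tested other AP-1 genes and dimer partners only Atf4, a mediator of the integrated stress response, was higher (1.49-fold, adjusted p = 0.000983, 4 of 4 animals), and none was lower. Of 19 other basic leucine zipper genes 3 were lower and none was higher. These included Cebpe (log2 -0.31, adjusted p = 0.0341) and Nfe2l2 (log2 -0.23, adjusted p = 0.0303), a factor of the oxidative stress response. The third was Cebpb, which was lower in 3 of 4 animals. The median log2 differences of both groups were -0.047 and -0.11, against -0.0022 over all genes.

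Among 24 tested kinases and factors upstream of AP-1, 1 was higher and 2 were lower. The kinase Map3k8 was 1.37-fold higher (adjusted p = 0.0059), whereas the serum response factor partner Elk4 (log2 -0.36, adjusted p = 0.0191) and the p38 kinase gene Mapk14 (log2 -0.29, adjusted p = 0.0316) were lower, each in 4 of 4 animals. Of 15 tested classical AP-1 targets 2 were higher and 1 was lower. Ifng, which encodes interferon gamma, was 7.03-fold higher (adjusted p = 0.00122) and Vim, a filament protein gene, 1.17-fold (adjusted p = 0.0302). Mmp9, a matrix protease of neutrophils and macrophages, fell by 0.95 on the log2 scale (adjusted p = 0.0361). The targets as a list thus had a median of 0.079.

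Of 30 tested other immediate early genes 13 were higher and 2 lower, with a median log2 difference of 0.39. This list, too, was chosen with earlier results of these data known. The phosphatase gene Dusp1 was 5.94-fold higher (log2 2.57, adjusted p = 0.000273) and the nuclear receptor gene Nr4a2 3.46-fold (log2 1.79, adjusted p = 0.0337). Zfp36, whose product degrades cytokine transcripts, was 2.89-fold higher (adjusted p = 0.00106), and Ppp1r15a, a regulator of translation under stress, 2.64-fold (adjusted p = 0.00122). Dusp2 (log2 -0.41, adjusted p = 0.0358) and Btg1 (log2 -0.32, adjusted p = 0.0066) were lower. All of these changed the same way in 4 of 4 animals.

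The genes most like the members over the 56 sums of gates and libraries were Dusp1 (r = 0.90), Zfp36 (r = 0.89), Ppp1r15a (r = 0.87), Ccl3 (r = 0.86) and Btg2 (r = 0.84). Likeness was measured as Pearson's r with the mean standardised log2 level of the 6 tested members, among 6917 genes, with 1 CPM added before the logarithm. These sums share animals, and the large difference between fresh and DMSO cells enters every r. Within the 28 fresh sums the values were 0.53, 0.53, 0.28, 0.22 and 0.49, and within the 28 DMSO sums 0.56, 0.64, 0.69, 0.62 and 0.57, in the same order. The level of Ccl3, a chemokine gene, lay between 186 and 330 CPM in the fresh libraries and between 693 and 1245 CPM in the preserved ones.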

How the data were processed

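Single-cell libraries of 4 rats, each fresh and DMSO cryopreserved, were analysed from the deposited matrices of raw UMI counts per gene and barcode. Per the labels and methods, the authors used bcl2fastq 2.17.1.14 and Cell Ranger 2.1.1 with STAR, on Rnor6.0 with Ensembl 86 genes. No normalization or cell selection had been applied to these counts. The members and lists were chosen with earlier results of these data known.

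Cells were barcodes with at least 500 UMIs, which are not replicates, so UMIs were summed per library, or per library and gate (at least 20 cells), and fitted by the quasi-likelihood method in edgeR 4.0.16 (R 4.3.3). TMM scaling, filterByExpr, the animal as a block and Benjamini-Hochberg adjustment over all genes (and over the 7 gates together) were used, with a threshold of 0.05. Gate comparisons between preservations used 56 sums with library and gate by animal as blocks, and gate genes were not tested. Diets were compared without a block. Pairing follows from the shared animal: deviations of the 2 libraries of 1 animal correlated with r of 0.58 to 0.73 and those of different animals with r of -0.55 to 0.34. No doublet caller was run, but cells with several gate genes were left out of the gates. Clustering was not used. The fits were tested on simulated data.

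Named genes were the members, up to 4 called genes per list and direction with the largest change that went the same way in 4 of 4 animals, and the 5 genes most like the members. Cebpb was named after its values were seen. Alternatives were DESeq2 1.42.0 and its size factors, no filter, other minimum UMIs and mitochondrial limits, other gates, adjustment within each gate, no block, and leaving out each animal. Python 3.11.15, numpy 2.4.6, pandas 2.3.3, scipy 1.17.1 and matplotlib 3.10.9 were used. UMI totals of 18338700 to 26471843 per library set the precision of low counts. No column of other samples was present.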

Additional observations from a re-analysis of the deposited data

Results flagged for a closer look

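Fos in fresh cells of NC1, at 92.9 CPM, lay far from the other 3 fresh libraries (20.1 to 32.1 CPM). Fosb in DMSO cells of NC2, at 1046 CPM, lay far from the other 3 preserved libraries (289 to 372 CPM). Both exceeded Dixon's 95% critical value for 4 samples among the 12 sets of 4 libraries examined, and chance alone passes it in about 1 of 20 sets. Fos in Vcan-gated cells differed in its change after DMSO from the other gates by -1.51 on the log2 scale (edgeR, adjusted p = 0.0192, in 3 of 4 animals), and without NC1 the value was -0.63 (adjusted p = 1).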

How the results depend on the processing

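Fitted log2 differences of the members between DMSO and fresh cells kept their direction under all alternatives and ranged over 5.71 to 7.02 for Fosb, 4.46 to 5.28 for Fos, 3.54 to 4.02 for Jun, 0.97 to 1.43 for Junb, 0.71 to 1.22 for Atf3 and 0.74 to 0.89 for Jund. Against 25 list genes called, 12 to 24 were called without 1 animal, 12 to 22 of them among the 25, and 6 without the replicate block. The count of 13 calls of members between fresh gates was 5 with a gate of at least 2 UMIs, 21 without exclusion of cells with several gate genes, 8 with a leading gate gene (at least 2 UMIs and 75% of all gate UMIs, chosen after seeing the data), 7 to 12 without 1 animal and 0 without the block. Without exclusion a cell enters several gate sums, so those sums share cells and calls in that setting are not independent. Both stricter gates could compare 4 gates only, with 6 and 7 of the 13 calls among the values tested, of which 3 were called in the same direction each time. Reversed values were those of Junb in Cd3e-gated (0.060 and 0.062) and Ncr1-gated cells (0.19 and 0.24) with the first and the last of these gates. The 1 gate by preservation call became 0 with DESeq2, a gate of at least 2 UMIs, the leading gate or no block, 5 without a filter, 6 without exclusion and 0 to 2 without 1 animal. In both stricter gates Vcan-gated cells were too few to be compared between preservations. The 2 diet calls became 0 to 4 and the 0 diet by preservation calls 0 to 2 without 1 animal. The share of DMSO cells with any member (mean of libraries, 85.1%) was 67.1% at 500, 95.9% at 2000 UMIs and 97.5% unthinned, and the co-detection of Fos and Jun (1.13) was 1.23, 1.05 and 1.06.

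Over all genes, 1044 calls after DMSO became 207 without NC2, 368 without PC1, 463 without PC2 and 16 without the block. The 8591 calls between fresh gates became 14493 without exclusion and 4627 without the block, and the 8 of gate by preservation 93 without a filter, 40 without exclusion, 2 with DESeq2 and 0 without the block. The 139 diet calls became 735 with DESeq2 and 560 without a filter, and 23 to 819 without 1 animal. The block changed no direction of a member. Causes were not tested. With 4 animals, 2 per diet, single-UMI gates and few fresh Fosb and Atf3 UMIs, small differences were not measurable.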
